A study of Mus musculus with 10 samples.

Results

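Accessible chromatin was examined at 10 genes of the epithelial to mesenchymal transition (EMT) in Myc-CaP cells, a cell line from a mouse prostate tumor. The epithelial genes were Cdh1 and Epcam, the mesenchymal structural genes were Cdh2, Vim and Fn1, and the mesenchymal transcription factors were Zeb1, Zeb2, Snai1, Snai2 and Twist1. A region belonged to a gene when it overlapped the gene body (GENCODE M21 on mm10) extended by 20 kb on either side. Regions of the 5 peak lists that shared 1 bp were merged, which gave 137 regions at these genes of 211107 merged regions in all, 35 at the 2 epithelial and 102 at the 8 mesenchymal genes. Of the 10 genes, 9 had a region in at least 1 list, and Twist1 had none.

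Epithelial cells are joined by adherens junctions, which are built on E-cadherin, the product of Cdh1. In EMT, factors of the Snail, ZEB and Twist families bind E-box sequences in epithelial genes and repress them, while mesenchymal genes such as those for vimentin, fibronectin and N-cadherin are turned on. Prostate cancers are mostly of luminal epithelial character, and partial EMT has been described in treated and metastatic disease.

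The study measured chromatin accessibility by ATAC-seq, in which a transposase cuts and tags open DNA. Myc-CaP cells, a single line of FVB/NJ origin, were left untreated (Ctrl) or received oxaliplatin at 2 µM (Oxali), cisplatin at 2 µM (Cispl), interferon-γ at 1 ng/ml, which the labels write as 1000 pg (IFNγ), or oxaliplatin and interferon-γ together at those amounts (Oxali + IFNγ). Cells were sampled at 48 h, with 2 libraries in each of the 5 groups. The authors pooled the 2 libraries of a group before calling peaks, and only these pooled lists were used here. Each group is thus 1 peak list, no spread between libraries can be given from it, and no difference below has a test against replicates. The authors also counted reads of each replicate in the merged regions and tested them with DESeq2, which was not repeated here.

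A pileup is the number of overlapping tags at the summit of a region, and a level is that pileup divided by the genome background of its list, which scales with the number of reads. Background was 12.1 in Ctrl, 11.3 in Oxali, 13.8 in Cispl, 9.62 with IFNγ and 12.9 in Oxali + IFNγ, so that the IFNγ list had 79.3% of the depth of Ctrl. Outside Cispl, the smallest pileup that could be called over the genome background was 18 (IFNγ) to 22 (Oxali + IFNγ). It was higher in Cispl, whose list ends at a stricter p-value. In every list it was also higher where the background around a region exceeded that of the genome. A region that was not called can thus have a pileup above these values. Intervals are 95% intervals of the counts and cover counting error only. A lower level can mean fewer cells with the region open or a less open region in each cell, and these cannot be told apart in bulk samples. Luminal markers were open at the start site for 4 or 5 of 6 genes in every list, fibroblast markers for 2 or 3 of 6, and none of 4 leukocyte and none of 3 endothelial markers had a start-site region.

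Sequence around 6 regions that carry the main differences is given here as 201 bases centered on the summit, from the RefSeq copy of the mm10 (GRCm38) reference of C57BL/6J on the plus strand (the cells are FVB/NJ). Capitals mark an exact match on either strand to CAGGTG (E-box of the Snail and ZEB families), CATCTG (E-box of Twist proteins), TGANTCA (AP-1) or AACCNGTT (grainyhead-like). The region before Vim had the highest ratio to Ctrl of all member regions in Oxali and in Oxali + IFNγ, the Snai1 pair differed in direction at the same gene, the Zeb2 intron region was the strongest of its gene in both oxaliplatin lists, and the Cdh1 pair lay next to each other and also differed in direction.
Vim, upstream (chr2:13558685-13558885): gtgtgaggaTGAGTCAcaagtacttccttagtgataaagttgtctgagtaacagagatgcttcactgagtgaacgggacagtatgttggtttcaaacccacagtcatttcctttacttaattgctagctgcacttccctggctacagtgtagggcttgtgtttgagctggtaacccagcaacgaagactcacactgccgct
Snai1, start site (chr2:167537904-167538104): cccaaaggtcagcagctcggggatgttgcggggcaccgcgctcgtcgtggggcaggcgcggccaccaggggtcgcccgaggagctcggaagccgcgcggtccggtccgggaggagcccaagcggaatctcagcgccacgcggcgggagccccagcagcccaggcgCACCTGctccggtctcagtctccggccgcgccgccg
Snai1, downstream (chr2:167543635-167543835): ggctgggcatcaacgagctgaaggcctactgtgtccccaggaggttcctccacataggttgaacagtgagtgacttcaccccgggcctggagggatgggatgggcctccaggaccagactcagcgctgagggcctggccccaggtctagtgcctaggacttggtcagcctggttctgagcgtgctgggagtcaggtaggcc
Zeb2, intron (chr2:45019885-45020085): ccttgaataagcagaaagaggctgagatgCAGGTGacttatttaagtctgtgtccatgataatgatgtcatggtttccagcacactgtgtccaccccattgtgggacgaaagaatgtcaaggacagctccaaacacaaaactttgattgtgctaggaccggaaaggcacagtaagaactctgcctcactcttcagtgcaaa
Cdh1, intron, first region (chr8:106605762-106605962): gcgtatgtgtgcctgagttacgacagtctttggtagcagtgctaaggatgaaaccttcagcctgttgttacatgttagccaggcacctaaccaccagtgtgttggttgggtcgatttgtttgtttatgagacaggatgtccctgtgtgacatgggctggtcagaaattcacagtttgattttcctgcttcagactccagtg
Cdh1, intron, second region (chr8:106608416-106608616): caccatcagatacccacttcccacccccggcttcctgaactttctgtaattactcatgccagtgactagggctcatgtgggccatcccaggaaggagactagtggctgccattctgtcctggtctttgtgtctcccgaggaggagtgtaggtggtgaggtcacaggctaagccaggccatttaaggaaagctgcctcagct

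The AP-1 match lay near the 5′ edge of the Vim window, CAGGTG matches lay at the Snai1 start site (on the other strand) and in the Zeb2 intron, and the other 3 windows held none of these letters. Over all 137 member regions, CAGGTG was found in 16.1% of windows of that length (10.9 to 23.1%), against 13.6% of all merged regions. CATCTG was found in 16.1% (10.9 to 23.1%) against 19.1%, TGANTCA in 21.9% (15.8 to 29.5%) against 21.02%, and AACCNGTT in 2.92% (1.14 to 7.27%) against 1.55%. Each share over all regions lay inside the interval of the members. E-boxes of the first kind were in 4 of 35 epithelial and 18 of 102 mesenchymal regions. The G and C content had a median of 48.3% at the members and 49.3% over all regions.

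The question of how many regions each gene had in each list came first. The member genes had 70 called regions in Ctrl, 92 in Oxali, 104 in Cispl, 74 with IFNγ and 97 in Oxali + IFNγ. These were 51.1, 67.2, 75.9, 54.0 and 70.8% of the 137, against 52.4, 70.0, 77.4, 50.8 and 79.1% of all merged regions (Oxali + IFNγ was the highest list over the genome and Cispl at the member genes). Cdh1 held 20, 20, 25, 18 and 20 in that order and Fn1 18, 20, 25, 19 and 19. Zeb2 went from 13 in Ctrl to 19 in Oxali, 26 in Cispl and 18 in Oxali + IFNγ, while IFNγ had 13. Zeb1 had 3 in Ctrl, 7 in Oxali, 5 in Cispl, 4 with IFNγ and 13 in Oxali + IFNγ. Vim had 4, 8, 7, 6 and 9, Epcam 2, 6, 4, 5 and 6, Snai1 8 or 9 and Snai2 1 to 3.

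**Figure D1:**
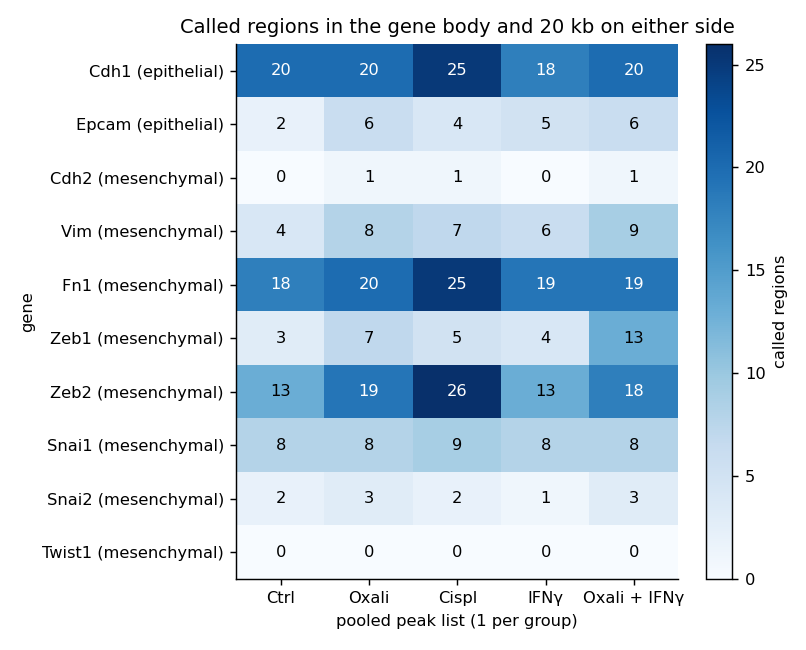
Number of called regions (color and digits) per gene (rows) in each pooled peak list (columns). Zeb1, Zeb2, Vim and the epithelial gene Epcam had more regions in the platinum lists than in Ctrl, as did all merged regions (52.4% called in Ctrl and 70.0 to 79.1% in those lists), Snai1 had 8 or 9 in each list, and Twist1 had none.

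Most member regions were distal. Of 137, 117 lay more than 1 kb from any annotated start site of a coding gene, 63 had their summit in an intron, 25 upstream, 29 downstream and 20 in an exon. They were called in all 5 lists in 54 cases (39.4%, against 40.4% over all merged regions) and in 1 list in 39 cases (28.5% against 23.7%). Ctrl lacked 67 of them, of which 16 were called in Cispl alone, 12 in Oxali + IFNγ alone, 6 in Oxali alone and 4 with IFNγ alone. These 67 were weak, with a median highest pileup of 45. Regions called in Oxali, Cispl and Oxali + IFNγ and in neither other list numbered 7 (5.11%, against 11.1% over all merged regions), with 2 at Epcam and 1 each at Cdh2, Vim, Fn1, Zeb2 and Snai1. Relative to the length searched, Ctrl had 18.7 regions per 100 kb at Cdh1, 17.9 at Snai1, 16.7 at Fn1 and 1.34 at Zeb1.

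Gains and losses were counted over the called intervals of each list before merging. Several intervals can lie in 1 merged region, so these totals exceed the counts of regions above, and an interval can be lost from a merged region that is still called. An interval was gained when it had a q-value of at most 0.01 in the treated list and overlapped no interval of Ctrl, and lost in the mirror case. In Oxali, 30 of 98 such intervals at the member genes were gained (30.6%, Wilson interval 22.4 to 40.3%), against 32.5% over all intervals. Gains made up 37 of 104 in Cispl (35.6%, 27.0 to 45.1%, against 37.3%), 10 of 74 with IFNγ (13.5%, 7.51 to 23.1%, against 12.9%) and 32 of 96 in Oxali + IFNγ (33.3%, 24.7 to 43.2%, against 38.4%). The member genes as a whole thus gained intervals at about the rate of the genome. Of 76 such intervals in Ctrl, 5 were lost in Oxali (6.58% against 9.11%), 4 in Cispl (5.26% against 5.9%), 10 with IFNγ (13.2% against 15.8%) and 7 in Oxali + IFNγ (9.21% against 7.59%). All 4 treated lists were set against the same Ctrl list, so these counts share its errors.

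Gains by group and by gene are given beside the shares over all intervals. Those were 32.5% in Oxali, 37.3% in Cispl, 12.9% with IFNγ and 38.4% in Oxali + IFNγ. In Oxali, gains made up 5 of 29 intervals (17.2%, 7.60 to 34.5%) of the epithelial genes and 25 of 69 (36.2%, 25.9 to 48.0%) of the mesenchymal genes, and these intervals overlap. The shares were 23.3% and 40.5% in Cispl, 26.9% and 35.7% in Oxali + IFNγ, and 16.0% and 12.2% with IFNγ. In every list the share over all intervals lay inside the Wilson interval of both groups. Among single genes it lay outside at Cdh1 in Oxali, at Epcam with IFNγ, and at Cdh1, Fn1 and Zeb1 in Oxali + IFNγ. Zeb1 had 10 of 13 intervals gained in Oxali + IFNγ (76.9%, 49.7 to 91.8%) and 5 of 8 in Oxali. Zeb2 had 14 of 25 gained in Cispl (56.0%, 37.1 to 73.3%) and 9 of 21 in Oxali. Cdh1 had 1 of 22 gained in Oxali (4.55%, 0.807 to 21.8%), 5 of 26 in Cispl, 1 of 19 with IFNγ and 3 of 19 in Oxali + IFNγ. The epithelial gene Epcam had 4 of 7 gained in Oxali and in Oxali + IFNγ (57.1%, 25.0 to 84.2%) and 3 of 6 with IFNγ, while the mesenchymal genes Snai1 and Fn1 had 1 of 8 and 4 of 19 gained in Oxali. In Oxali the genes of each group thus lay on both sides of the share over all intervals, many of them with few intervals. Among merged regions missing from a treated list, 2 are given, chosen after their values were seen. At Snai1 the region 12.4 kb from the start site had pileups of 100 in Ctrl, 113 in Cispl and 102 in IFNγ and was called in neither oxaliplatin list. Its local background was 47.9 in Ctrl. At the Snai1 region 14.8 kb from the start site, local background was 47.2 in Ctrl, 64.95 in Oxali and 68.9 in Oxali + IFNγ. A higher local background raises the pileup needed for a call, and its part in the missing calls was not tested. At Cdh1 the region 41.8 kb into the gene had 95, 79, 73 and 57 in Ctrl, Oxali, Cispl and IFNγ and was not called in Oxali + IFNγ.

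Levels were compared at the 54 regions called in all 5 lists, 18 epithelial and 36 mesenchymal. In Oxali, 15 of them were at least 1.5-fold higher than in Ctrl (27.8%, against 27.7% over all such regions), and 2 were at least 1.5-fold lower (3.70% against 8.39%). The counts were 14 higher (25.9% against 23.1%) and 7 lower (13.0% against 13.9%) in Cispl, 1 higher (1.85% against 3.7%) and 4 lower (7.41% against 19.4%) with IFNγ, and 15 higher (27.8% against 29.3%) and 8 lower (14.8% against 16.1%) in Oxali + IFNγ. Higher regions were mesenchymal in 13 of 15 cases in Oxali, 13 of 14 in Cispl and 12 of 15 in Oxali + IFNγ, while the 1 higher region with IFNγ was epithelial. Lower regions were epithelial in 1 of 2, 5 of 7 and 5 of 8, and in 2 of 4 with IFNγ.

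Summed over regions, epithelial accessibility was lower than in Ctrl in every treated list. The summed pileup of the 18 epithelial regions was 6511 in Ctrl, 5139 in Oxali, 5289 in Cispl, 3951 with IFNγ and 4840 in Oxali + IFNγ. After scaling for depth, the log2 ratio to Ctrl was -0.23 (-0.29 to -0.18) in Oxali, -0.48 (-0.53 to -0.43) in Cispl, -0.39 (-0.44 to -0.33) with IFNγ and -0.52 (-0.57 to -0.46) in Oxali + IFNγ. The 36 mesenchymal regions summed to 8002, 9866, 9224, 5496 and 9988 in the same order of lists. Their log2 ratio was 0.41 (0.37 to 0.45) in Oxali, 0.02 (-0.02 to 0.07) in Cispl, -0.21 (-0.26 to -0.16) with IFNγ and 0.23 (0.19 to 0.27) in Oxali + IFNγ. The median log2 ratio over all 85377 regions called in every list was 0.15, 0.07, -0.25 and 0.14. With that median taken off, the mesenchymal ratio was 0.26, -0.04, 0.04 and 0.09, which turns its sign in Cispl and in IFNγ. The epithelial ratio was then -0.38, -0.55, -0.14 and -0.66. With IFNγ the median epithelial region was at -0.13, and 12 of 18 lay above the median of all regions. In Cispl the median mesenchymal region was at 0.26, and 25 of 36 lay above 0.

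The epithelial log2 ratio minus the mesenchymal one was -0.64 (-0.71 to -0.58) in Oxali, -0.50 (-0.57 to -0.44) in Cispl, -0.18 (-0.25 to -0.10) with IFNγ and -0.75 (-0.82 to -0.68) in Oxali + IFNγ. Epithelial regions were stronger in Ctrl, with a median level of 18.0 against 6.96 for the mesenchymal ones. Strong regions were lower in every treated list, the median log2 ratio of the highest of 10 level classes being -0.46 in Oxali, -0.71 in Cispl, -0.52 with IFNγ and -0.88 in Oxali + IFNγ. Scaled within these classes, the difference was -0.64, -0.46, -0.19 and -0.78. Cdh1 supplied 16 of the 18 epithelial regions. Its highest one lay at the start site of the neighboring gene Tango6, and without that region the difference was -0.59, -0.46, -0.10 and -0.59. In IFNγ the sign depended on the summary.

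As medians over regions the differences were -0.60 in Oxali, -0.50 in Cispl, 0.04 with IFNγ and -0.74 in Oxali + IFNγ. In the 3 platinum lists most of that difference of medians went when the pileup was divided by the local background of the region in place of the genome background. That local value is taken from a stretch of DNA that holds the region and its neighbors, so it also divides out differences shared over that stretch. On this scale the median log2 ratio of the epithelial regions was 0.06 in Oxali, -0.09 in Cispl, -0.14 with IFNγ and -0.08 in Oxali + IFNγ, and that of the mesenchymal regions 0.14, -0.07, -0.12 and 0.11. All regions had medians of 0.03, -0.05, -0.21 and 0.00. The difference of medians between the groups was -0.08, -0.02, -0.02 and -0.19. At least 1.5-fold higher were 4 of 36 mesenchymal regions in Oxali, 6 in Cispl and 7 in Oxali + IFNγ, against 13, 13 and 12 with the genome background, and 19.5%, 16.4% and 20.2% of all regions on the local scale.

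**Figure D2:**
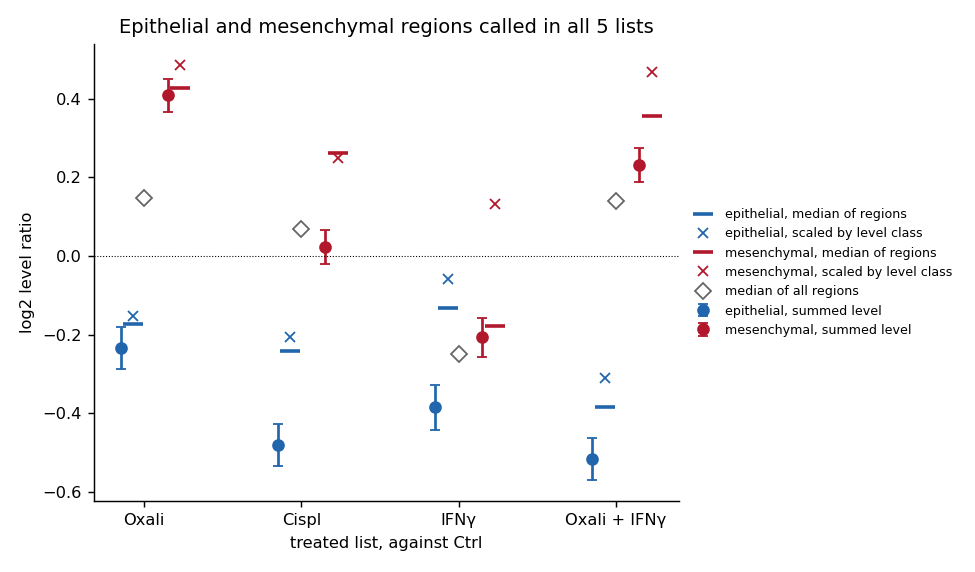
Log2 level ratio to Ctrl (vertical axis) of the epithelial (blue) and mesenchymal (red) regions in each treated list. Circles with 95% counting intervals are summed levels, dashes the median region, crosses the sums scaled within level classes, and open diamonds the median of all 85377 regions. Circles were at -0.23 and 0.41 in Oxali, and at -0.52 and 0.23 in Oxali + IFNγ.

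Cdh1, the gene of E-cadherin (chr8:106603351-106670246, plus strand), had no region within 1 kb of its principal start sites in any list, and the nearest one began 2.12 to 2.18 kb away. Whether reads can be placed at that start site, and whether a region there is among rows not used here, was not tested, so the missing region is not evidence of closed chromatin. For comparison, 55.8 to 59.4% of 21938 coding genes had a start-site region. The Cdh1 regions lay in the introns and also upstream and downstream of the gene. The strongest within the gene in Ctrl and Cispl was 16.4 kb from the start site, with pileups of 899 in Ctrl, 562 in Oxali, 572 in Cispl, 342 with IFNγ and 464 in Oxali + IFNγ. That region was lower in all 4 treated lists, with log2 ratios of -0.57 (-0.73 to -0.42), -0.83 (-0.99 to -0.68), -1.06 (-1.24 to -0.88) and -1.04 (-1.21 to -0.88), or -0.35, -0.30, -0.75 and -0.59 over local background. The region at 20.0 kb, the strongest within the gene in the other 3 lists, had pileups of 853, 687, 524, 512 and 633 in the same order, and was lowest against Ctrl in Cispl, at -0.88 (-1.04 to -0.73).

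Adjacent Cdh1 regions differed in direction. The region 5.17 kb into the gene had pileups of 223 in Ctrl, 93 in Oxali, 118 in Cispl, 145 with IFNγ and 117 in Oxali + IFNγ, which puts every platinum list below Ctrl and IFNγ. Its log2 ratio in Oxali was -1.15 (-1.52 to -0.80), and 0.344% of all regions had a ratio as low. The region 2.51 kb into the gene had pileups of 97, 175, 157, 80 and 223, so that the same platinum lists were the highest. Its log2 ratio was 0.96 (0.59 to 1.33) in Oxali and 1.11 (0.76 to 1.47) in Oxali + IFNγ. At 37.8 kb the pileups were 214, 347, 224, 118 and 394, higher in both oxaliplatin lists at 0.80 (0.55 to 1.06) and 0.79 (0.55 to 1.04) and not in Cispl at -0.12 (-0.39 to 0.16). At 11.5 kb the pileups were 459, 451, 461, 317 and 495, and every interval of the log2 ratio to Ctrl included 0. Over local background the regions at 5.17 and 2.51 kb still differed in direction, at -0.86 and 1.36 in Oxali, while that at 37.8 kb was at 0.32.

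Epcam, which encodes the epithelial cell adhesion molecule (chr17:87635979-87651129, plus strand), had few called regions, and missing ones have the same limit as at Cdh1. Only the IFNγ list held a region within 1 kb of its start site, with a pileup of 24, close to the lowest that could be called. The strongest region lay 29.7 kb from the start site, beyond the end of the gene, with pileups of 280 in Ctrl, 193 in Oxali, 257 in Cispl, 158 with IFNγ and 172 in Oxali + IFNγ. It was lower than in Ctrl in every treated list, down to a log2 ratio of -0.79 (-1.07 to -0.51) in Oxali + IFNγ. The other region present in all lists lay 19.1 kb upstream, was weak, and had higher levels in Cispl (0.84, 0.25 to 1.45) and Oxali + IFNγ (0.70, 0.10 to 1.33). Regions 12.5 and 26.2 kb from the start site were called in all 3 platinum lists and in neither Ctrl nor IFNγ, at pileups of 36 to 78.

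**Figure D3:**
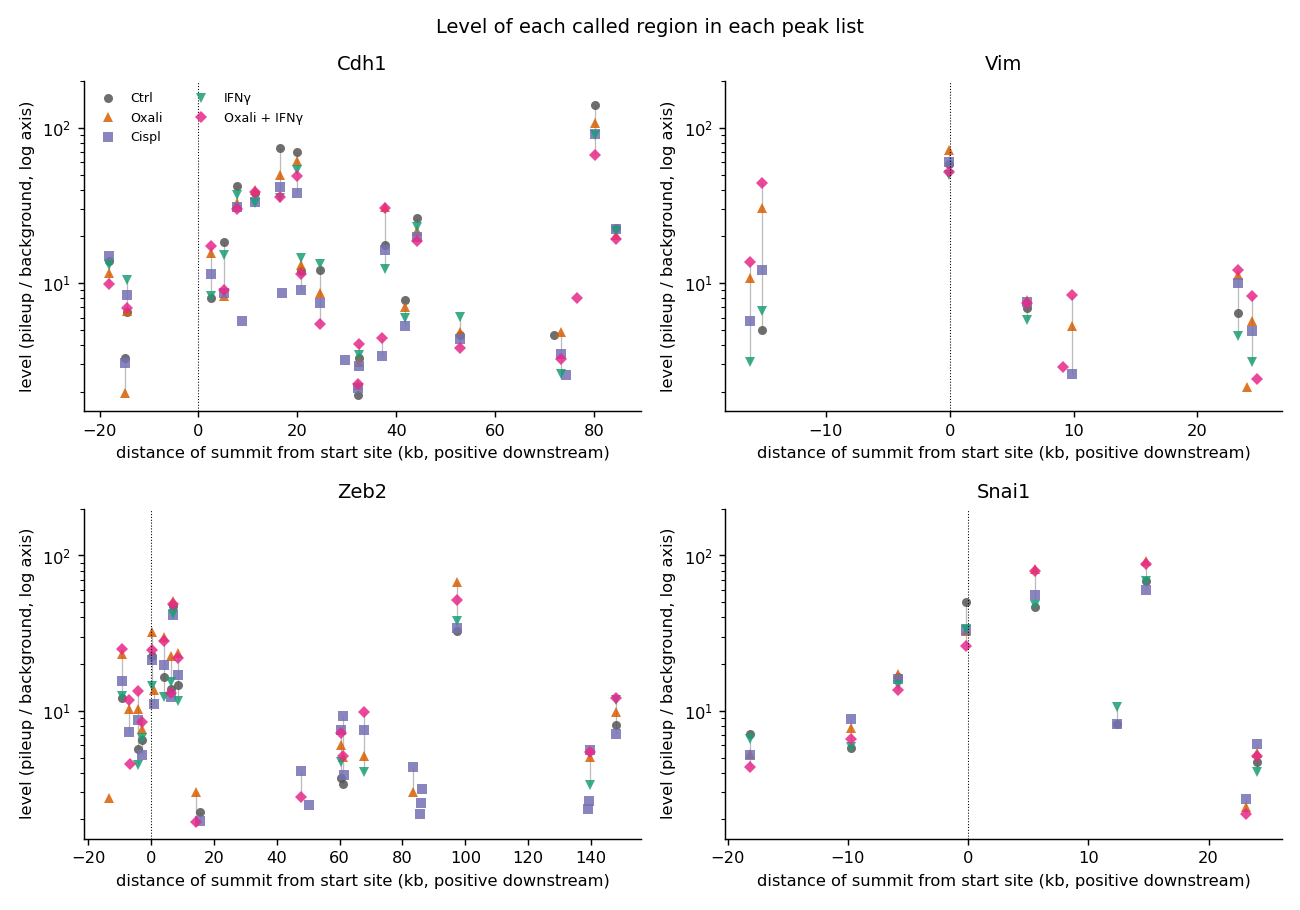
Level of each called region (summit pileup divided by list background, log axis) against the distance of its summit from the start site of Cdh1, Vim, Zeb2 and Snai1, with 1 symbol per peak list. Cdh1 had no region at its start site in these lists, the Vim region 15.2 kb upstream was highest in Oxali + IFNγ and Oxali, and the Snai1 start-site region was highest in Ctrl.

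Vim encodes vimentin, the intermediate filament protein of mesenchymal cells (chr2:13573927-13582826, plus strand). Its start-site region was strong in every list, with pileups of 710 in Ctrl, 810 in Oxali, 823 in Cispl, 476 with IFNγ and 674 in Oxali + IFNγ, and levels of 58.5, 71.9, 59.8, 49.5 and 52.2. The lists differed much more upstream. The region at chr2:13558448-13559219, 15.2 kb before the start site, had pileups of 61 in Ctrl, 341 in Oxali, 168 in Cispl, 64 with IFNγ and 567 in Oxali + IFNγ. Ctrl and IFNγ were the low lists there, with a log2 ratio of 0.40 (-0.12 to 0.93) between them, while the log2 ratio was 2.59 (2.19 to 3.01) in Oxali, 1.28 (0.85 to 1.73) in Cispl and 3.13 (2.75 to 3.53) in Oxali + IFNγ. A ratio as high was reached by 0.257%, 5.01% and 0.0422% of all regions. Over local background the ratios were 1.56, 1.08 and 1.70.

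That Vim region was not alone. A neighbor 16.1 kb upstream was not called in Ctrl and had pileups of 122 in Oxali, 78 in Cispl, 30 with IFNγ and 176 in Oxali + IFNγ. Downstream, the region at 23.3 kb had pileups of 78, 128, 137, 44 and 157, and that at 9.89 kb was called only in Oxali (60), Cispl (36) and Oxali + IFNγ (108). The upstream region accounts for part of the group result, since without it the mesenchymal log2 ratio was 0.37 in Oxali, 0.01 in Cispl, -0.21 with IFNγ and 0.16 in Oxali + IFNγ.

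Fn1 encodes fibronectin of the extracellular matrix (chr1:71585520-71653200, minus strand). It had the strongest start-site region of the members, with pileups of 1511 in Ctrl, 1515 in Oxali, 1289 in Cispl, 843 with IFNγ and 1213 in Oxali + IFNγ. The log2 ratio was 0.11 (0.01 to 0.21) in Oxali and lower than 0 in Cispl (-0.41, -0.52 to -0.30), IFNγ (-0.51, -0.63 to -0.38) and Oxali + IFNγ (-0.41, -0.52 to -0.30). Within the gene the order was different. The region 9.71 kb into Fn1 had pileups of 46, 83, 192, 27 and 72, highest in Cispl, where its log2 ratio was 1.88 (1.41 to 2.38). Of its 10 regions common to the lists, 6 were at least 1.5-fold higher in Cispl (23.1% of all regions were) and 3 in Oxali (27.7% of all). The local background of the region at 9.71 kb was 19.3 in Ctrl and 46.3 in Cispl, and over local background it alone of the 6 was still at least 1.5-fold higher in Cispl, at 0.80. Fn1 also held many weak regions, 14 of its 37 being called in 1 list.

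Cdh2, the gene of N-cadherin (chr18:16588877-16809246, minus strand), had 1 region in its window, 12.9 kb upstream. It was called in Oxali (47), Cispl (72) and Oxali + IFNγ (37), and in neither Ctrl nor IFNγ. Twist1, which encodes a basic helix-loop-helix factor (chr12:33957671-33959829, plus strand), had no region within its window, and the nearest lay 72.1 kb away in Oxali + IFNγ and 379 kb away in Ctrl. As at Cdh1, the missing regions are not evidence of closed chromatin.

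Among the transcription factors, the ZEB genes had most of the additional regions, in windows of 224 kb (Zeb1) and 174 kb (Zeb2). The windows of Snai1, Snai2 and Twist1 were 42.2 to 44.6 kb. Per 100 kb, called regions in Ctrl and Oxali were 1.34 and 3.13 at Zeb1, 7.48 and 10.9 at Zeb2, and 4.59 and 6.89 at Snai2. Snai1 had 17.9 in both. Zeb1 encodes a zinc finger repressor of Cdh1 (chr18:5591860-5775467, plus strand) and had no region at its principal start site in any list, with the same limit as at Cdh1. Its 3 common regions, at 8.09 kb upstream and 11.8 and 167 kb into the gene, were all highest in Oxali + IFNγ, with log2 ratios to Ctrl of 1.16 (0.49 to 1.86), 1.05 (0.63 to 1.47) and 1.19 (0.71 to 1.69), and 1.16, 0.77 and 1.19 over local background. Of the intervals gained in Oxali + IFNγ, the strongest was in the Zeb1 intron region 149 kb from the start site. That region was not called in Ctrl and had pileups of 132 in Oxali, 67 in Cispl, 33 with IFNγ and 189 in Oxali + IFNγ. Summed over the common regions, Zeb1 in Oxali + IFNγ exceeded Oxali by 0.66 (0.40 to 0.92), where all regions had a median of -0.04.

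Zeb2, the paralog of Zeb1 (chr2:44983632-45117395, minus strand), had 29 regions, 11 of them in all lists. At its most upstream start site the pileups were 273 in Ctrl, 363 in Oxali, 292 in Cispl, 138 with IFNγ and 316 in Oxali + IFNγ. Another annotated start site 6.98 kb inward had a stronger region than that, with 574, 576, 570, 407 and 632, and the lists were close there. The intron region at chr2:45018772-45020320 had pileups of 394, 756, 472, 362 and 668, high in both oxaliplatin lists. Its log2 ratio was 1.05 (0.87 to 1.23) in Oxali, 0.08 (-0.12 to 0.28) in Cispl, 0.21 (0.00 to 0.42) with IFNγ and 0.67 (0.49 to 0.86) in Oxali + IFNγ. Upstream, the region at 9.20 kb had pileups of 146, 260, 214, 120 and 324. A region 7.15 kb upstream was called in Oxali (116), Cispl (100) and Oxali + IFNγ (151) only. An intron region at 67.9 kb was not called in Ctrl and had 58 in Oxali, 103 in Cispl, 39 with IFNγ and 127 in Oxali + IFNγ. All 11 common Zeb2 regions had a higher level in Oxali than in Ctrl, and 7 of them by at least 1.5-fold (27.7% of all regions were). With the all-region median of 0.15 taken off, 10 of 11 were above 0 and 4 at least 1.5-fold higher. In Cispl, 6 of 11 were above Ctrl and 2 at least 1.5-fold higher. Over local background 1 of 11 was at least 1.5-fold higher in Oxali, and the intron region at chr2:45018772-45020320 had a ratio of 0.36 there.

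Snai1 encodes Snail, a direct repressor of Cdh1 (chr2:167538195-167542814, plus strand). Its start-site region was lower in every treated list, with pileups of 607 in Ctrl, 370 in Oxali, 456 in Cispl, 324 with IFNγ and 335 in Oxali + IFNγ. The log2 ratios were -0.61 (-0.80 to -0.42), -0.59 (-0.77 to -0.42), -0.57 (-0.77 to -0.37) and -0.95 (-1.14 to -0.75). A region just past the gene, 5.54 kb from the start site, went the other way in the oxaliplatin lists, with pileups of 563, 922, 768, 459 and 1018. Its log2 ratio was 0.82 (0.67 to 0.97) in Oxali, 0.27 (0.11 to 0.43) in Cispl, 0.04 (-0.14 to 0.22) with IFNγ and 0.77 (0.62 to 0.92) in Oxali + IFNγ. The region at 14.8 kb had 833, 1046, 825, 664 and 1138, with log2 ratios of 0.44 (0.30 to 0.57) in Oxali and 0.36 (0.23 to 0.49) in Oxali + IFNγ but -0.20 (-0.34 to -0.05) in Cispl. Over local background the region at 5.54 kb had ratios of 0.00 in Oxali and -0.06 in Oxali + IFNγ, that at 14.8 kb -0.13 and -0.09, with the sign turned, and the start-site region -0.21, -0.30, -0.51 and -0.50 in the 4 treated lists.

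Snai2, which encodes Slug (chr16:14705852-14709385, plus strand), was weakly open. The larger of its start-site regions had pileups of 42 in Ctrl, 46 in Oxali, 31 in Cispl and 66 in Oxali + IFNγ and was not called with IFNγ. The region 4.31 kb upstream had 185, 137, 139, 70 and 92 and was lower in Cispl (-0.59, -0.92 to -0.27), with IFNγ (-1.07, -1.48 to -0.66) and in Oxali + IFNγ (-1.10, -1.47 to -0.73).

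**Figure D4:**
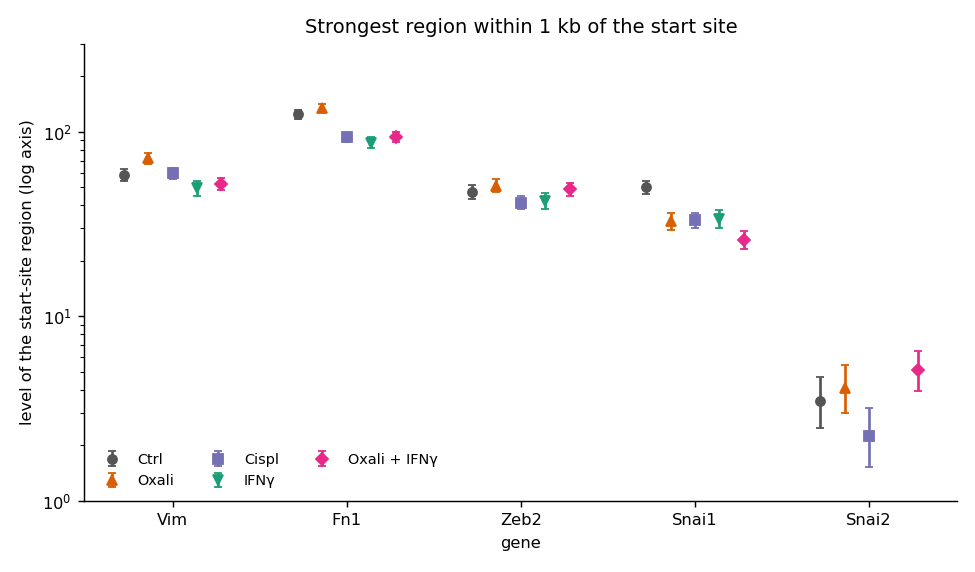
Level of the strongest region within 1 kb of a principal start site (log axis) for the 5 genes with such a region in more than 1 list; bars are exact Poisson 95% intervals of the pileup. Fn1 was the highest at 87.6 to 134, Snai1 was highest in Ctrl at 50, and Snai2 lay between 2.25 and 5.11.

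In Ctrl the start-site levels thus ran from Fn1 at 124 (118 to 131) through Vim at 58.5 (54.3 to 63.0), Snai1 at 50 (46.1 to 54.1) and Zeb2 at 47.3 (43.5 to 51.3) to Snai2 at 3.46 (2.49 to 4.68). The intervals of Snai1 and Zeb2 overlap. In Oxali + IFNγ, Snai1 at 26.0 (23.3 to 28.9) lay below Zeb2 at 49.0 (45.2 to 52.9).

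**Figure D5:**
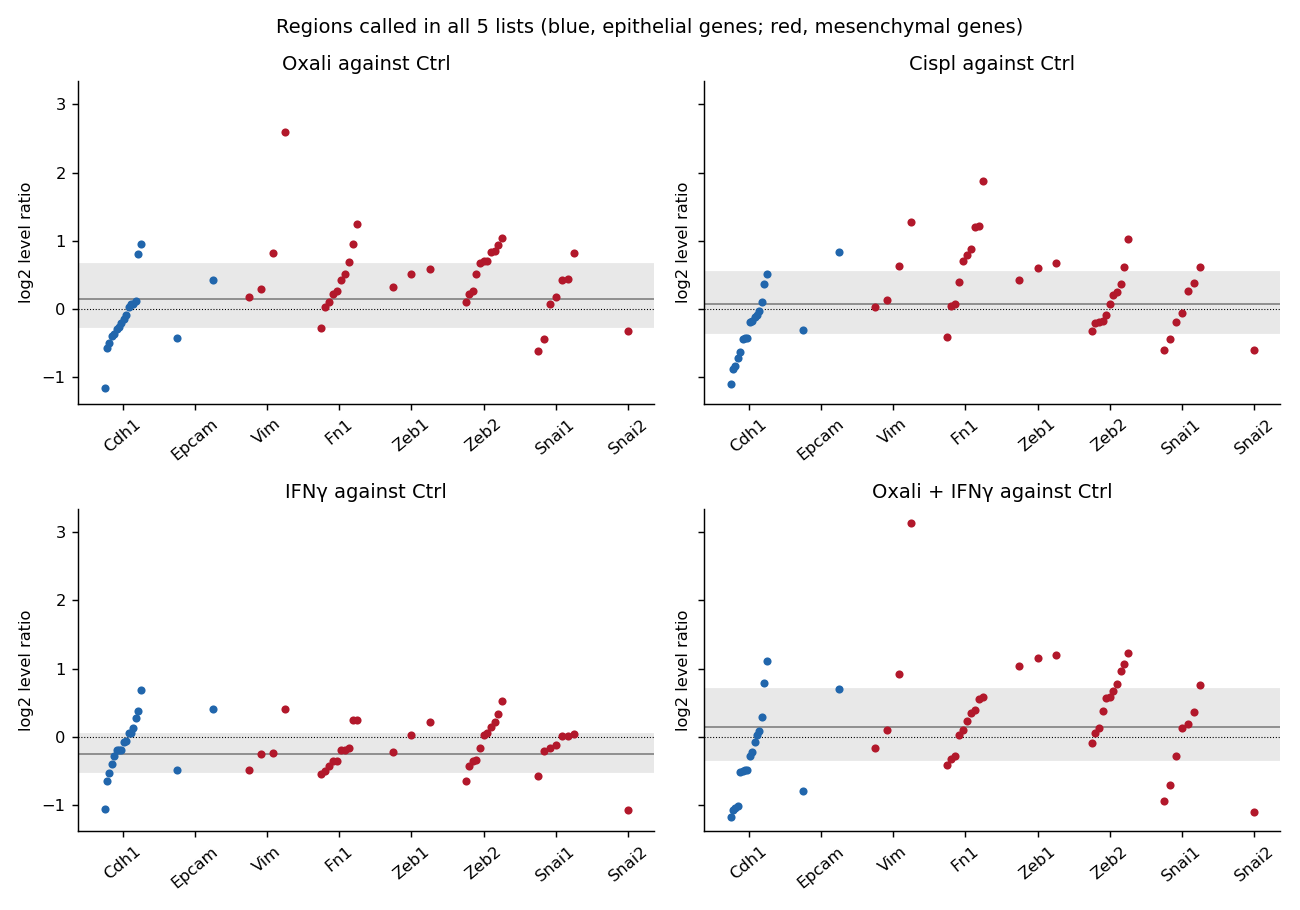
Log2 level ratio to Ctrl of each region called in all 5 lists, by gene, in the 4 treated lists. Gray lines and bands are the median and the middle quartiles of all 85377 regions; the Vim upstream region stands at 2.59 in Oxali and 3.13 in Oxali + IFNγ, and all Zeb2 regions lie above 0 in Oxali.

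Oxaliplatin and cisplatin were given at the same dose and for the same time. Both form platinum crosslinks in DNA, and they differ in their ligands, diaminocyclohexane and oxalate in oxaliplatin and ammine and chloride in cisplatin. The mesenchymal regions were higher in Oxali than in Cispl by 0.39 on the log2 scale (0.34 to 0.43) and the epithelial ones by 0.25 (0.19 to 0.30), beside a median of 0.13 over all regions. The median region differed by 0.16 in the mesenchymal and 0.14 in the epithelial group, close to all regions and to each other, and scaling within level classes gave 0.21 and 0.05. Of the genes with several common regions, Zeb2 had the largest difference, 0.57 (0.50 to 0.65). Single regions with a higher level in Oxali were the Vim upstream region at 1.31 (1.04 to 1.58), the Zeb2 intron region at 0.97 (0.80 to 1.14) and the Cdh1 region at 37.8 kb at 0.92 (0.67 to 1.17). The Fn1 region at 9.71 kb was higher in Cispl, at -0.92 (-1.31 to -0.54). Over local background these 4 contrasts were 0.47, 0.50, 0.51 and -0.36. With the genome background the interval included 0 at the Snai1 start site, at -0.01 (-0.22 to 0.19), and at the Cdh1 region 5.17 kb into the gene, at -0.06 (-0.46 to 0.35). None of these contrasts could be tested over libraries from the pooled lists.

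Adding IFNγ to oxaliplatin was set against oxaliplatin alone in the same way. The log2 ratio of Oxali + IFNγ to Oxali was -0.28 (-0.34 to -0.22) for the epithelial and -0.18 (-0.22 to -0.14) for the mesenchymal regions, beside -0.04 over all regions. The median region differed by -0.16 and -0.08, and scaling within level classes gave -0.14 and -0.02, so that little of the mesenchymal difference was left. The Vim upstream region was higher with both agents, at 0.54 (0.34 to 0.74), while the Vim start site was lower, at -0.46 (-0.61 to -0.31). The Fn1 start site was lower as well, at -0.52 (-0.63 to -0.41). Over local background these 3 contrasts were 0.14, -0.30 and -0.21.

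Other genes of the pathway were counted by list. At 16 further epithelial genes, among them claudins, keratins and the splicing factors Esrp1 and Esrp2, 130 regions were common to the lists, with a median log2 ratio to Ctrl of -0.08 in Oxali, -0.17 in Cispl, -0.21 with IFNγ and -0.24 in Oxali + IFNγ. At 21 further mesenchymal genes there were 154, with medians of 0.08, -0.10, -0.26 and 0.02. All regions had medians of 0.15, 0.07, -0.25 and 0.14, so this wider mesenchymal list lay at or below them in every list, unlike the 36 member regions, whose medians were 0.43, 0.26, -0.18 and 0.36. That side depended on the scaling. Scaled within level classes, the medians were 0.05, 0.02, -0.01 and 0.07 for the wider list and 0.27, 0.21, 0.05 and 0.10 for the member regions. At least 1.5-fold higher were 18 of 130 epithelial (13.8%) and 42 of 154 mesenchymal regions (27.3%) in Oxali, 10.0% and 18.8% in Cispl, 3.85% and 1.95% with IFNγ, and 15.4% and 27.9% in Oxali + IFNγ. The mesenchymal shares lay near or below those of all regions and the epithelial ones further below, except in IFNγ. Regions at least 1.5-fold lower made up 12.3% and 6.49% in Oxali, 23.8% and 13.6% in Cispl, 13.1% and 18.8% with IFNγ, and 22.3% and 18.8% in Oxali + IFNγ, against 8.39, 13.9, 19.4 and 16.1% of all regions. The mesenchymal shares lay near these, and both shares with IFNγ were below. Gains made up 16.7% of epithelial and 22.5% of mesenchymal intervals in Oxali, 22.6% and 30.1% in Cispl, 8.02% and 13.1% with IFNγ, and 22.0% and 30.9% in Oxali + IFNγ. Over all intervals these shares were 32.5, 37.3, 12.9 and 38.4%, which is above both lists except for the mesenchymal one with IFNγ.

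Named after their values were seen, a few start sites are given as examples. Krt8, a luminal keratin, had levels of 88.8 in Ctrl, 53.7 in Oxali, 44.4 in Cispl, 82.9 with IFNγ and 60.3 in Oxali + IFNγ. Jup, which encodes junctional plakoglobin, had 241, 123, 114, 142 and 87.9. On the mesenchymal side the receptor gene Tgfbr1 had 221, 129, 115, 116 and 87.8, highest in Ctrl. Start-site regions were called for 10 to 12 of the 16 epithelial and 13 to 15 of the 21 mesenchymal genes in each list. The epithelial genes Cldn7, Ocln, Dsp and Esrp1 had none in the lists used here, with the same limit as at Cdh1. The same held for the mesenchymal genes Acta2, Mmp2, Col3a1, Foxc2, Prrx1 and Lox.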

How the data were processed

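ATAC-seq libraries of Myc-CaP cells were made in duplicate for 5 groups. Per the labels and the study's methods, the authors trimmed reads with cutadapt, aligned them to mm10 with Bowtie2 2.2.8, filtered on mapping quality with SAMtools, discarded mitochondrial and duplicate reads, combined both libraries of a group, called peaks with MACS2 2.1.0 at a lenient p-value and removed blacklisted sequence. The deposited fold, a ratio of pileup plus 1 to local background plus 1, and, on the −log10 scale, the deposited p-value and q-value of each peak are the authors' values. The whole-number pileup and background behind them were solved here and recovered for 100% of peaks. The Cispl list ends at a −log10 p of 2.99 and the others at 2.00, so the weakest regions are missing there.

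Summits of an interval were counted as 1 region, and overlapping regions of the 5 lists were merged. Gains and losses were counted over the unmerged intervals of each list. Levels are summit pileups over the genome background of the list. The local background of each summit was used as an alternative chosen after seeing the data. A summit is a maximum, so a level is biased upward, most in weak regions. The start site is that of the principal transcripts of GENCODE M21, and a start-site region lies within 1 kb. No test over replicates was possible from the peak lists used here, because each holds the pooled libraries of a group. Shares carry Wilson, ratios exact binomial and levels exact Poisson 95% intervals; the interval of a difference of log2 ratios is a normal approximation. Regions named were the start-site region, the 2 highest, those with the largest and smallest ratio, the strongest gained and lost ones and those in the platinum lists only; single regions outside this rule were named after their values were seen. The members and lists were chosen with earlier results of these data known. Python 3.11.15, SciPy 1.17.1 and pandas 2.3.3 were used, and scripts were tested on simulated data.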

Additional observations from a re-analysis of the deposited data

How the results depend on the processing

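No paired analysis was possible from the peak lists used here, because each group's 2 libraries had been pooled before peak calling. Results without single libraries were not obtained either. The spread between libraries is unknown, and the counting intervals do not cover it. Depth was lowest in IFNγ, which limits its weak regions. Called regions per list stayed within 1.5 times with a q-value of at most 0.01 or a −log10 p of at least 3, as did gains and losses with an overlap of 50%, with every deposited region or with the latter threshold.

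With a q-value of at most 1e-05, gains were 23 in Cispl and 5 in IFNγ, and losses 2 in Cispl and 4 in Oxali + IFNγ. A window of 5 kb gave 18, 4 and 20 gains in Oxali, IFNγ and Oxali + IFNγ and 3 and 4 losses in Oxali and Oxali + IFNγ, and a window of 50 kb gave 8 and 16 losses in Oxali and IFNγ.

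The difference between epithelial and mesenchymal log2 ratios in Oxali was -0.53 with a 5 kb window and -0.81 without start sites, in Cispl -0.68 without start sites, and in Oxali + IFNγ -0.46, -0.59 without start sites of other genes, -0.94 without any, and -0.67 without the Vim upstream region (a setting chosen after seeing the data). In IFNγ it was -0.0870 with 5 kb, -0.10 without start sites of other genes, -0.26 without any, and 0.0448, with the sign turned, as a median over regions.

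In the order Oxali, Cispl, IFNγ and Oxali + IFNγ, epithelial ratios were -0.38, -0.55, -0.14 and -0.66 scaled by the median of all regions, -0.15, -0.21, -0.0577 and -0.31 scaled by level class, and -0.17, -0.24, -0.13 and -0.38 as medians. Mesenchymal ratios were 0.26, -0.0449, 0.0430 and 0.0916 scaled by the median (the sign turned in Cispl too) and 0.49, 0.25, 0.13 and 0.47 by class, so that the sign turned in IFNγ under both. As medians they were 0.26 in Cispl and 0.36 in Oxali + IFNγ, where leaving out the Vim upstream region gave 0.16. Over local background, as medians and chosen after seeing the data, epithelial ratios were 0.0621 (sign turned), -0.0906, -0.1407 and -0.0799, mesenchymal ratios 0.1383, -0.0731, -0.1191 and 0.1134, and the difference -0.0762, -0.0176, -0.0217 and -0.1933. The cause was not tested.

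Other alternatives chosen after seeing the data changed the contrasts between treated lists. Oxali against Cispl gave 0.12, 0.0523 and 0.14 for the epithelial and 0.25, 0.21 and 0.16 for the mesenchymal regions under the median, class and median-region settings. Oxali + IFNγ against Oxali gave -0.14 and -0.16 for the epithelial regions under the class and median-region settings, and -0.14, -0.0239 and -0.0765 for the mesenchymal ones under all 3.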
